A study of Mus musculus with 8 samples.

Results

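Epithelial genes, 10 of the 21938 protein-coding genes of the mouse annotation, were followed through NANOG, BRG1 and histone mark maps of fibroblasts on their way to pluripotency. They were Cdh1, Epcam, Krt8, Krt18, Cldn3, Cldn4, Cldn7, Ocln, Esrp1 and Grhl2, taken by name as epithelial genes of mesenchymal-epithelial transition. The rule that finds their peaks uses no measured value, although the genes were proposed with earlier results of these data in view. For each gene the window was its body in the GENCODE annotation of build mm10 plus 20 kb on either side, and every peak of the 8 deposited lists that reached the window was taken.

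The maps were made by CUT&Tag, in which an antibody tethers a transposase to chromatin so that nearby DNA is cut and tagged for sequencing. The cells were mouse embryonic fibroblasts (MEFs) at day 5 of reprogramming, prepared per the study's methods from embryos carrying the OG2 reporter, a GFP driven by Oct4 regulatory sequence, and infected with pMXs retroviruses. Both arms carried exogenous Oct4. One arm, labelled Nanog+Oct4 and called NanogWT, also carried wild-type Nanog, and the other, labelled NanogN70+Oct4 and called NanogBiD, carried Nanog fused at its N-terminus to the part of SS18 that binds BRG1. That NanogN70 is NanogBiD follows the text of the study and not the labels. Each arm was profiled for FLAG, the tag on the exogenous NANOG, for BRG1, the motor subunit of the BAF remodeller, and for H3K27ac and H3K4me1, histone marks found at active and at active or poised regulatory elements. The authors merged replicates before calling peaks, so each of the 8 groups is 1 library, no difference between arms has a replicate check, and no test across samples was possible. The cultures were mixed populations, in which fewer cells with a mark and less of it per cell cannot be told apart.

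The lists held 425777 peaks in all, between 30859 and 74782 per list. NanogBiD had more peaks than NanogWT for FLAG (74782 against 58940), BRG1 (53748 against 30859) and H3K27ac (42598 against 35452), and fewer for H3K4me1 (57156 against 72242). A peak's height is the number of overlapping tags at its summit, its score is the peak caller's significance value (at least 50 in every list), and neither was scaled to sequencing depth, which is unknown. Absence of a peak means that none was called at that depth and not that the protein or mark was absent. Of the fibroblast marker promoters, 9 of 10 had an H3K27ac peak in either arm, against 0 in NanogWT and 1 in NanogBiD of 5 for blood, 1 and 3 of 4 for endothelium, 1 and 2 of 5 for keratinocytes, 0 and 1 of 3 for neurons and 0 and 1 of 5 for pluripotent cells. In each of these non-fibroblast lists NanogBiD had more marked promoters than NanogWT, and the part of other cells, or of the longer NanogBiD list, in the results below was not tested.

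Mesenchymal-epithelial transition is the switch by which spindle-shaped, loosely attached cells gain junctions and polarity. Fibroblasts pass through it early in reprogramming, because pluripotent cells are themselves epithelial. The switch is held back in fibroblasts by the repressors SNAI and ZEB, which bind E-boxes at epithelial promoters, and it is upheld in epithelia by grainyhead-like factors such as GRHL2 and by the splicing regulator ESRP1. Among the other genes, Cdh1 encodes E-cadherin of adherens junctions, Epcam an epithelial adhesion molecule, Krt8 and Krt18 the paired keratins of simple epithelia, Cldn3, Cldn4 and Cldn7 claudins of tight junctions, and Ocln occludin.

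The sequences below belong to the places on which the results turn. They are the claudin sites with FLAG and BRG1 in NanogBiD alone, the strongest FLAG summits shared by both arms at Cldn4 and Krt8, the promoters of Cldn3 and Cldn4 and the FLAG site at the Krt8 promoter, and the Epcam promoter as one without any FLAG peak. Coordinates are of mm10 (GRCm38.p6), distances are in kb from the gene's start site with negative values upstream, summit sequences span 100 bases on either side of the summit, and promoters are the 250 bases before the start in RefSeq's table for GRCm38.p6. Capitals mark the motifs searched on both strands, which were the E-box of ZEB and SNAI (CACCTG), AP-1 (TGANTCA), GRHL (AACCNGTT), the OCT octamer (ATGCAAAT), SOX (ACAATGG), TEAD (GGAATG) and NANOG (TAATGG). None of these strings is contained in another.
Cldn4 +4.0 kb summit, chr5:134942824-134943024, + strand: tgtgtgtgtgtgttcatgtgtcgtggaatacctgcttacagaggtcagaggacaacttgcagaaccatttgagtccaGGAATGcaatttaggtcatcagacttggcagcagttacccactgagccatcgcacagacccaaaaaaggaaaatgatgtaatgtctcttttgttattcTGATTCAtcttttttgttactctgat
Cldn4 promoter, chr5:134946935-134947184, - strand: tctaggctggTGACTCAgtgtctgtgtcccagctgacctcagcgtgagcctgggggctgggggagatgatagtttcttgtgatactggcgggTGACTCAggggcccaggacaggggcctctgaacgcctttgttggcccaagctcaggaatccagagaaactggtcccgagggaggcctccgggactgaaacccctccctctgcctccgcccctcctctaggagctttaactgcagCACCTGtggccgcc
Cldn4 -12.3 kb summit, chr5:134959179-134959379, + strand: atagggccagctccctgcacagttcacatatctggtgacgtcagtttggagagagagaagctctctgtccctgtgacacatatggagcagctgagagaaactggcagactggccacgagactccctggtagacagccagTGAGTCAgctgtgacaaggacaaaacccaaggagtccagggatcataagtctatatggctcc
Cldn3 -12.9 kb summit, chr5:134973240-134973440, + strand: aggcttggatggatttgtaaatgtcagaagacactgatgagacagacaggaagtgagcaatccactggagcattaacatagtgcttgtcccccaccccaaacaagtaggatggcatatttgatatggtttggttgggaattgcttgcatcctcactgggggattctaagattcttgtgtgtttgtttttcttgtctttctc
Cldn3 promoter, chr5:134985964-134986213, + strand: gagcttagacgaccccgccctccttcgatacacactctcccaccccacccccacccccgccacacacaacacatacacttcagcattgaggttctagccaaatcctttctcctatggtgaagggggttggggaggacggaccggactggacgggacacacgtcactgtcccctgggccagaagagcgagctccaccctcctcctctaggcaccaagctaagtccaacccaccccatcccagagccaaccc
Krt8 -1.1 kb summit, chr15:102005436-102005636, + strand: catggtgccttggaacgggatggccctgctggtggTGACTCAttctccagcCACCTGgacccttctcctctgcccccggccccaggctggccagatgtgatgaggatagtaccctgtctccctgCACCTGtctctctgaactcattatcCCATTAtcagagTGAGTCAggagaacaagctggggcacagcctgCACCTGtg
Krt8 +20.2 kb summit, chr15:101984132-101984332, + strand: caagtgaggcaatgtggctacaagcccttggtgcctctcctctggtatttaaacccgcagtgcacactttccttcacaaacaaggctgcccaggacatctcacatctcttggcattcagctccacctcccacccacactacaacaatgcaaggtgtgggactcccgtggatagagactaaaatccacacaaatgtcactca
Epcam promoter, chr17:87635729-87635978, + strand: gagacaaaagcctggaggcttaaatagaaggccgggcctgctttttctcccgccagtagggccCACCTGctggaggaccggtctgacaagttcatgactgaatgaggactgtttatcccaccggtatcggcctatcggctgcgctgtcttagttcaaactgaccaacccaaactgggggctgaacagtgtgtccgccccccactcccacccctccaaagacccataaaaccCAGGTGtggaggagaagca

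RefSeq promoters matched 7 of the 10 genes, and Cdh1, Esrp1 and Grhl2 were not matched. The E-box was present in 6 of the 9 table entries of these genes, 66.7%, and in 17.2% of all 32851 entries of this length. The 6 entries were of Epcam, Krt8, Krt18, Cldn4, Cldn7 and Ocln, the last 2 of which also had an entry without it. Only the Cldn4 entry also held AP-1 strings, found in 6.75% of entries, whereas the Cldn3 promoter held none of the 7 motifs. The FLAG site at the Krt8 promoter held several E-boxes, AP-1 strings and a NANOG string. With 9 entries the promoter shares are coarse. GC content of the 9 entries ranged from 51.2% to 69.2%, against a median of 52.4% over all entries, and its part was not tested.

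Around FLAG summits (50 bases either side), an AP-1 string occurred at 7 of the 31 FLAG regions of the epithelial genes, 22.6%, against 9.61% of all 88186 FLAG regions. The E-box occurred at 3 regions (9.68% against 4.38%), and TEAD and NANOG strings at 3 each (9.68% against 7.07% and 6.77%). No region held the GRHL, OCT or SOX string within that distance, and these were found at 0.568%, 2.31% and 2.30% of all FLAG regions. With 31 regions these shares are coarse, and a matching string is not evidence of binding by that factor.

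The 10 windows contained 52 separate elements when the peaks of all 8 lists were merged, of 123421 in the genome. Of these, 15 lay at a promoter of one of the 10 genes (within 2 kb of any annotated start site), 9 only at the promoter of another gene, and 28 away from promoters. H3K4me1 alone marked 17 elements (32.7%, against 21.03% of all elements), 13 had a peak in a single list (25% against 33.02%) and 7 had a peak in every list (13.46% against 12.03%). All 4 targets were found at 12 elements in NanogWT and at 12 in NanogBiD (23.1% each, against 15.3% and 19.7%). Windows of the neighbours Krt8 and Krt18, and of Cldn3 and Cldn4, overlap, and 2 elements were counted in both.

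For FLAG, the windows together held 23 NanogWT peaks and 26 NanogBiD peaks, which gives a ratio of 1.13 (exact 95% interval 0.62 to 2.07, counting error only). For BRG1 the numbers were 15 and 20 (1.33, 0.649 to 2.80), for H3K27ac 16 and 19 (1.19, 0.578 to 2.47), and for H3K4me1 44 and 34 (0.773, 0.479 to 1.24). Every interval includes 1. Over the windows of all protein-coding genes the ratios were 1.24, 1.56, 1.16 and 0.798, on the same side of 1 as at the epithelial genes. For BRG1 this side depended on the setting, with a ratio of 0.818 for peaks with a score of at least 100 and of 0.667 for the 20000 peaks of highest score. Keeping 20000 peaks per list removes the difference in list length between the arms. No ratio over all genes was computed at either setting. Within gene bodies alone the FLAG and BRG1 ratios were both 1. That of H3K27ac was 2.33 (0.533 to 13.98) and that of H3K4me1 0.727 (0.357 to 1.45), and both intervals include 1.

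Gene by gene, 7 of the 10 had more FLAG peaks in NanogBiD and 3 had fewer, where 40.9% of all protein-coding windows had more and 14.4% fewer. Among the 20000 peaks of highest score 2 genes had more and 1 had fewer. The 3 with fewer were Cdh1 (2 against 3), Krt18 (1 against 3) and Grhl2 (6 against 8). For BRG1, 5 genes had more peaks in NanogBiD (background 42.1%) and Cdh1 alone had fewer (10.1%). With a score of at least 100 no gene had more BRG1 peaks in NanogBiD, and among the 20000 peaks of highest score 0 had more and 3 had fewer. The background shares given here are of the full lists, and none was computed for the stricter ones. Keeping 20000 peaks per list also gives both arms equally many. Of the 5 genes with more BRG1 peaks in the full lists, Krt18 (2 against 1) counted only because a NanogWT peak began 1 bp past its window. For H3K27ac, 4 had more (29.1%), namely Krt8, Cldn3, Cldn4 and Grhl2, and Krt18 alone had fewer (13.5%). With a score of at least 100, and likewise among the 20000 peaks of highest score, 2 had more and 2 fewer. For H3K4me1, Esrp1 alone had more (16.3%) and 6 had fewer (42.5%), most of all Grhl2 with 7 peaks against 13. With a score of at least 100, 1 gene had more and 7 had fewer, and among the 20000 peaks of highest score 1 had more and 3 had fewer. Cldn3 and Cldn4 had more peaks of FLAG, BRG1 and H3K27ac in NanogBiD, and Grhl2 had more of BRG1 and H3K27ac but fewer of FLAG and H3K4me1.

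**Figure D1:**
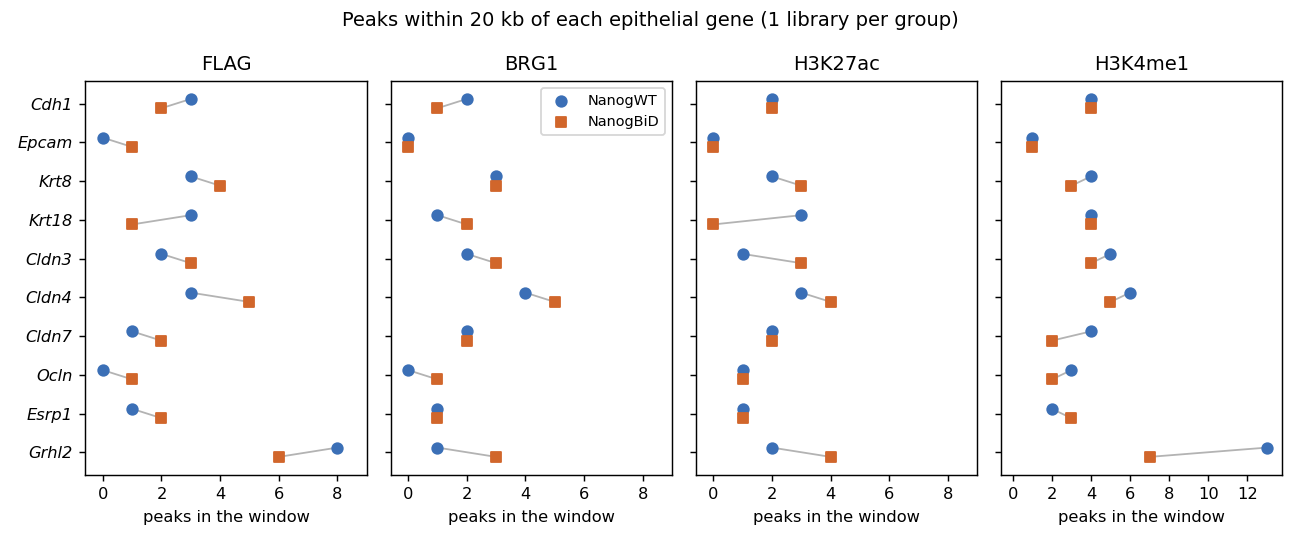
Number of peaks (x axis) within 20 kb of each epithelial gene (y axis) for FLAG, BRG1, H3K27ac and H3K4me1, with circles for NanogWT and squares for NanogBiD, 1 library each and hence no error bars. FLAG peaks were more numerous in NanogBiD at 7 genes and fewer at 3, against 40.9% and 14.4% of all protein-coding windows. H3K4me1 peaks at Grhl2 numbered 13 in NanogWT and 7 in NanogBiD.

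The promoters of these genes carried H3K4me1 in nearly all cases and H3K27ac and BRG1 in at most 3 each. An H3K4me1 peak was present at 10 of 10 promoters in NanogWT and 9 of 10 in NanogBiD, against 63.3% and 62.0% of all protein-coding promoters. With a score of at least 100 these counts were 7 and 6, and among the 20000 peaks of highest score 6 and 6. The shares of all promoters were not computed at those settings. An H3K27ac peak was present at 1 of 10 in NanogWT and 3 of 10 in NanogBiD, against 57.1% and 59.9%. H3K4me1 without H3K27ac was thus the state of 9 of 10 epithelial promoters in NanogWT and 6 of 10 in NanogBiD, where 12.1% and 8.72% of all promoters had it. FLAG was called at 3 promoters in NanogWT and 6 in NanogBiD (55.2% and 56.8% of all promoters), and BRG1 at 2 and 3 (53.9% and 55.5%).

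Counted by gene over all of its start sites, every member with a FLAG, BRG1 or H3K27ac promoter peak in NanogWT also had one in NanogBiD. Members with a promoter peak in NanogBiD alone were, for FLAG, Cldn4, Ocln and Esrp1 (3 of 10 against 5.31% of all promoters), for BRG1, Grhl2 (1 against 5.15%), and for H3K27ac, Krt8 and Cldn3 (2 against 4.29%). No member had a promoter peak of these targets in NanogWT alone, which over all promoters happened at 3.74%, 3.61% and 1.44%. These comparisons are not like for like. A NanogWT peak of FLAG, BRG1 and H3K27ac was present at 55.2%, 53.9% and 57.1% of all promoters, against 3, 2 and 1 of 10 members. Promoters with such a peak cannot count as NanogBiD alone, and those without it cannot count as NanogWT alone. For H3K4me1, Cldn4 had a promoter peak in NanogWT alone (1 of 10 against 5.5%), of 15 tags, and no member had one in NanogBiD alone (4.24%). Single promoter regions of NanogBiD alone also lay at genes marked in both arms, with H3K27ac at Grhl2 (10 tags at the main start and 12 at 100.8 kb) and H3K4me1 at Krt8 (17), Esrp1 (14) and Grhl2 (12, at 100.8 kb). H3K4me1 promoter regions of NanogWT alone lay at Krt8 (21 tags) and Grhl2 (19 at the main start and 13 at 85.7 kb). Most of these peaks were weak. Among promoter peaks with a score of at least 100, the FLAG peaks of both arms were those of Cldn3 and Grhl2 and the BRG1 peak that of Cldn3, so that only the H3K27ac peak of Cldn3 distinguished the arms apart from H3K4me1 at Epcam.

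**Figure D2:**
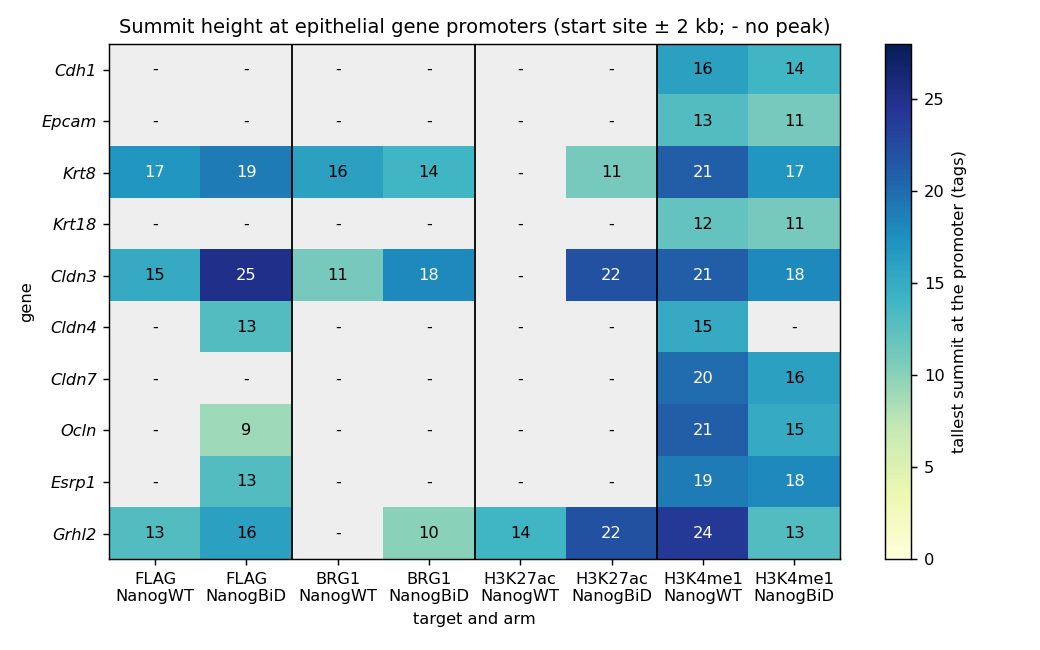
Tallest summit (tags, number and colour) within 2 kb of any start site of each epithelial gene (rows), by target and arm (columns), 1 library each, with a dash and grey where no peak was called. The H3K4me1 columns are filled for 10 and 9 genes (63.3% and 62.0% of all promoters), the H3K27ac columns for 1 and 3 (57.1% and 59.9%).

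Over the whole windows, promoters included, FLAG had 31 regions, of which 17 were shared by both arms, 9 were found in NanogBiD alone and 5 in NanogWT alone (over all genes 31.6% and 15.4% were found in NanogBiD and NanogWT alone). BRG1 had 22 regions, 14 shared, 6 in NanogBiD alone (42.8% over all genes) and 2 in NanogWT alone (10.8%). H3K27ac also had 22, with 14, 6 and 2 in the same order (26.0% and 14.1%). H3K4me1 had 47 regions, 30 shared, 4 in NanogBiD alone (16.3%) and 13 in NanogWT alone (33.3%). The shared share was thus 54.8% for FLAG (95% Wilson interval 37.8 to 70.8), 63.6% for BRG1 and for H3K27ac (43.0 to 80.3), and 63.8% for H3K4me1 (49.5 to 76.0), against 52.9%, 46.4%, 59.9% and 50.4% over all genes. These shares depended on the setting. With a score of at least 100 they were 33.3% for FLAG and 81.8% for BRG1. When summits had to lie within 200 bp they were 30.8% for H3K27ac and 35.1% for H3K4me1.

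For each target, regions found in a single arm had lower medians than shared ones. Shared regions were measured by their taller arm, which in itself favours them. FLAG regions of NanogBiD alone ranged from 9 to 23 tags with a median of 13.0, those of NanogWT alone from 9 to 14 with a median of 11, and shared regions from 11 to 27 in the taller arm with a median of 17.0. BRG1 regions of NanogBiD alone had a median of 10.5 tags and shared ones of 18.5 in the taller arm. For H3K27ac these medians were 11.5 and 23, and for H3K4me1 15.5 and 18.

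At shared regions FLAG heights were mostly larger in NanogBiD. Of 17 shared FLAG regions, 14 were taller in NanogBiD, 1 was taller in NanogWT and 2 were equal, with a median log2 ratio of 0.34 (order-statistic 95% interval over regions 0.16 to 0.74, in which regions of the same pair of libraries are not replicates). After subtracting the median of all shared regions of the genome it was 0.19 (0.0085 to 0.59). With score in place of height it was 0.32 (-0.23 to 0.81) and for peaks with a score of at least 100 it was 0.23 (-0.0544 to 0.74), the last 2 intervals including 0. Over all shared FLAG regions near protein-coding genes the median was 0.15 and 58.8% were taller in NanogBiD. For BRG1, 5 regions were taller in NanogBiD, 8 lower and 1 equal, with a median of -0.09, where over all genes 54.0% were taller and 36.7% lower and the median was 0.10. The BRG1 median was 0.0614 for peaks with a score of at least 100. For H3K27ac, 8 were taller, 4 lower and 2 equal, with a median of 0.07, where 54.4% were taller and the median was also 0.07. Subtracting the median of all shared regions of the genome left -0.0105. For H3K4me1, 7 were taller, 20 lower and 3 equal, with a median of -0.23, where 66.1% were lower and the median was -0.18. The H3K4me1 share of lower regions was thus close to that of all genes. No single region stood out, since the exact interval of the height ratio included 1 at all 17, 14, 14 and 30 shared regions.

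**Figure D3:**
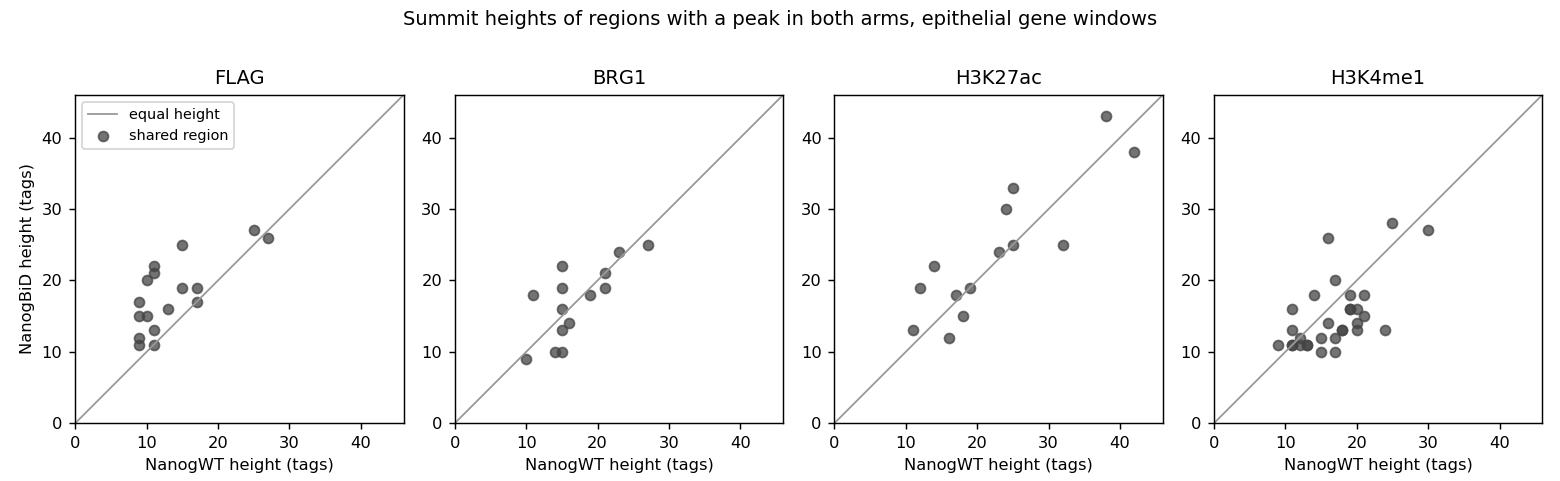
Summit height (tags) in NanogBiD (y axis) against NanogWT (x axis) for every region of the epithelial gene windows with a peak in both arms, 1 point per region and 1 panel per target, with the grey line at equal height. For FLAG 14 of 17 points lie above the line (58.8% over all genes), and for H3K4me1 20 of 30 lie below it (66.1% over all genes).

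The claudin genes Cldn3 and Cldn4 lie next to each other on chromosome 5, and this locus held both elements at which FLAG, BRG1 and H3K27ac were all called in NanogBiD and none of them in NanogWT. These are 2 of the 52 elements, 3.85%, against 1.89% of all 123421. At the Cldn3 promoter FLAG summits reached 15 tags in NanogWT against 25 in NanogBiD (ratio 1.67, 0.845 to 3.40), and BRG1 11 and 18 (1.64, 0.732 to 3.83). H3K27ac was not called there in NanogWT and reached 22 tags in NanogBiD, with a score of 231.89. H3K4me1 was present in both, at 21 and 18 tags. The Cldn3 start therefore carried NANOG, BRG1 and H3K4me1 in either arm and a peak of H3K27ac in NanogBiD only.

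An element 4.6 kb downstream of the Cldn4 start, chr5:134941000-134943588, had no FLAG, BRG1 or H3K27ac peak in NanogWT. In NanogBiD it carried FLAG of 23 tags, BRG1 of 17 (score 85.53) and H3K27ac of 23. It held 2 H3K4me1 regions, one with 11 tags in NanogWT and 16 in NanogBiD and the other, under the FLAG summit, of 17 tags in NanogBiD alone. Its centre lies in an exon of Mettl27, a neighbouring gene with a start site 1.83 kb away, so it is closer to Mettl27 than to Cldn4. The sequence under its FLAG summit (Cldn4 +4.0 kb) holds a TEAD and an AP-1 string.

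The second such element was intergenic, at -12.7 kb from Cldn3. There NanogBiD had FLAG of 14 tags, BRG1 of 10 (score 67.76) and H3K27ac of 11, NanogWT had none of these, and H3K4me1 measured 14 tags in NanogWT and 18 in NanogBiD. Its FLAG summit sequence (Cldn3 -12.9 kb) held none of the motifs. With a score of at least 100, neither element kept its BRG1 peak.

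Other elements of the locus were occupied in both arms. At -12.4 kb from Cldn4, FLAG measured 10 tags in NanogWT and 20 in NanogBiD (ratio 2, 0.893 to 4.78), BRG1 15 and 13 and H3K27ac 23 and 24, while H3K4me1 of 24 tags was found in NanogWT alone. At the intergenic element shared by both windows, -19.1 kb from Cldn4, FLAG measured 9 and 17 tags (ratio 1.89, 0.796 to 4.81), BRG1 19 and 18, H3K27ac 12 and 19 and H3K4me1 17 and 12. Both FLAG intervals include 1, as do those of FLAG and BRG1 at the Cldn3 promoter. The Cldn4 promoter itself had a FLAG peak of 13 tags in NanogBiD alone, with a score of 50.63 at the calling limit, and neither BRG1 nor H3K27ac in either arm. An element at -5.1 kb carried a BRG1 peak of 8 tags in NanogWT alone. The H3K27ac peak at 14.1 kb, of 25 tags in each arm, lies at the Mettl27 promoter.

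**Figure D4:**
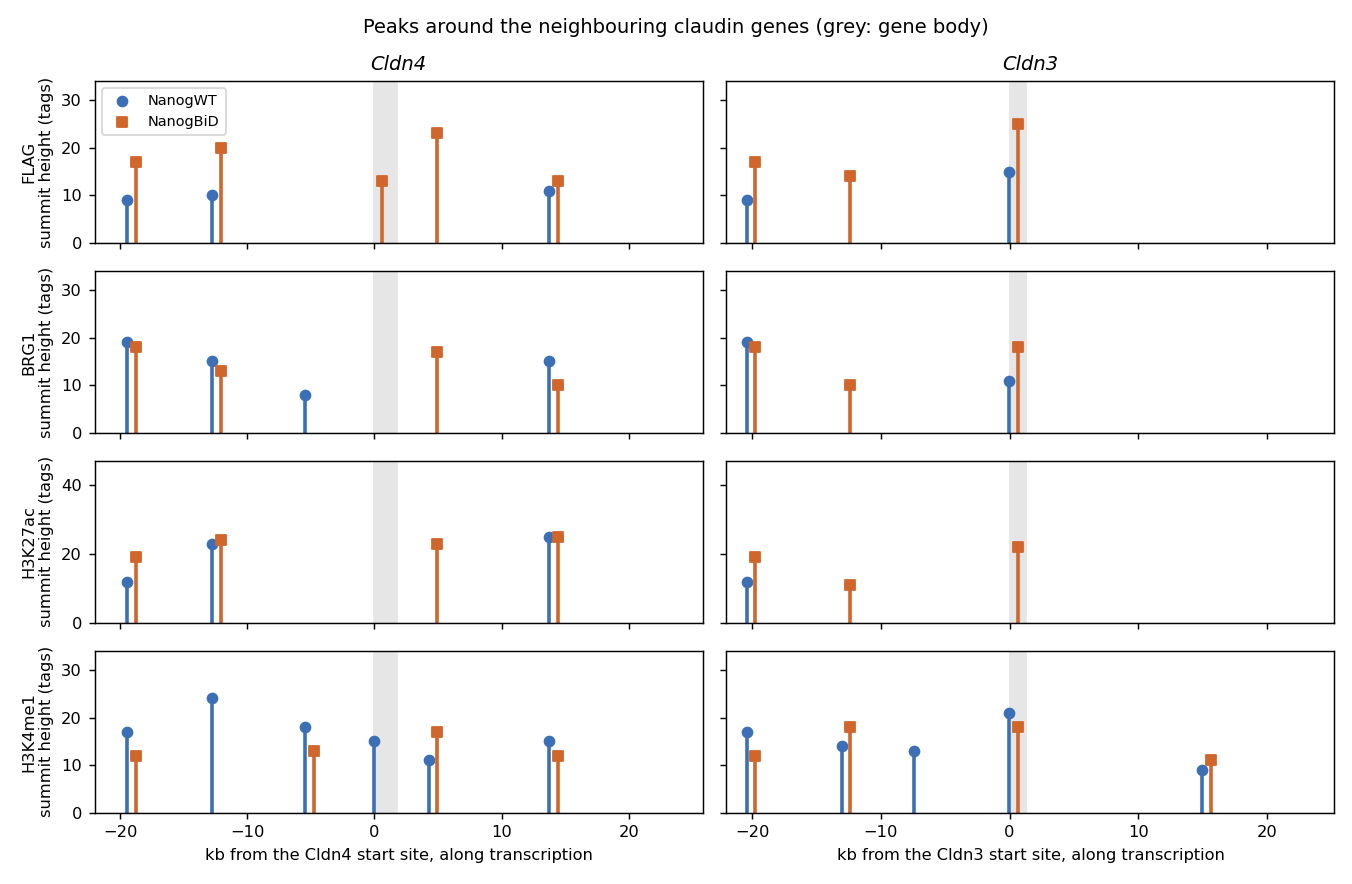
Height of each element (tags, y axis) by distance from the Cldn4 and Cldn3 start sites (kb along the direction of transcription, x axis), with circles for NanogWT and squares for NanogBiD set slightly apart sideways and the gene body in grey, 1 library each. At 4.6 kb from Cldn4 FLAG, BRG1 and H3K27ac show squares only, of 23, 17 and 23 tags.

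Cldn7 and Ocln, the other tight junction genes, had few peaks that were not at neighbouring genes. The Cldn7 promoter carried only H3K4me1, with 20 tags in NanogWT and 16 in NanogBiD. The tallest peaks of its window lay at 16.2 kb, at the shared promoter of Ctdnep1 and Elp5, where FLAG measured 25 and 27 tags, BRG1 27 and 25 and H3K27ac 38 and 43. At -16.3 kb, at the promoter of the glucose transporter gene Slc2a4, a FLAG peak of 11 tags was found in NanogBiD alone beside BRG1 of 15 and 16 tags. The Ocln promoter had H3K4me1 of 21 and 15 tags and a FLAG peak of 9 tags in NanogBiD alone, with a score of 50.84. The remaining Ocln peaks were at Gtf2h2, with H3K27ac of 19 tags in both arms at 60.3 kb and BRG1 of 8 tags in NanogBiD alone at 73.9 kb.

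Cdh1 and Epcam, the adhesion genes most often used to mark the transition, had no FLAG, BRG1 or H3K27ac peak at their promoters in either arm. The Cdh1 promoter carried H3K4me1 of 16 tags in NanogWT and 14 in NanogBiD. An intronic Cdh1 element at 16.5 kb had FLAG of 9 and 11 tags and H3K27ac of 16 and 12, with BRG1 of 9 tags in NanogWT alone. A second intronic element, at 21.6 kb, had FLAG of 10 tags in NanogWT alone and H3K4me1 of 20 and 13. Cdh1 was the one gene of the 10 at which both FLAG and BRG1 were called less often in NanogBiD, each by 1 peak. Its tallest peaks, with H3K27ac of 32 and 25 tags at 80.0 kb, belonged to the promoter of Tango6. Epcam had H3K4me1 of 13 and 11 tags near its start and a FLAG peak of 12 tags at 28.4 kb in NanogBiD alone, and no BRG1 or H3K27ac peak anywhere in its window. The Epcam promoter printed above, with its E-boxes, was thus free of called NANOG in either arm.

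The keratin genes Krt8 and Krt18 stand side by side on chromosome 15, and H3K27ac peaks of a single arm were those of NanogBiD at Krt8 and of NanogWT at Krt18. At the Krt8 promoter FLAG measured 17 tags in NanogWT and 19 in NanogBiD and BRG1 16 and 14, at the site whose sequence is printed above. On the other side of the start, at 1.3 kb in an intron, H3K27ac of 11 tags and H3K4me1 of 17 were found in NanogBiD alone, while H3K4me1 upstream, of 21 tags, was found in NanogWT alone. A further FLAG peak of 14 tags was called in NanogBiD alone at -3.2 kb, with a score of 50.39.

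Downstream of Krt8, 2 intergenic elements were occupied in every list. At 20.2 kb FLAG measured 11 tags in NanogWT and 22 in NanogBiD (ratio 2, 0.93 to 4.57), BRG1 23 and 24, H3K27ac 24 and 30 and H3K4me1 16 and 26. At 27.8 kb FLAG measured 11 and 21 (ratio 1.91, 0.88 to 4.38), BRG1 21 and 21, H3K27ac 42 and 38 and H3K4me1 30 and 27. The intervals of both FLAG ratios include 1, and BRG1 heights at these elements differed by at most 1 tag.

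The Krt18 promoter carried H3K4me1 alone, of 12 and 11 tags. At 6.4 kb from its start, intergenic, FLAG of 12 tags and H3K27ac of 15 were found in NanogWT alone, with H3K4me1 of 15 and 10 tags in the 2 arms. At 17.0 kb H3K27ac of 9 tags was found in NanogWT alone, while FLAG measured 9 and 12 and BRG1 10 and 9. The count of 3 H3K27ac peaks in NanogWT and 0 in NanogBiD at Krt18 overstates the difference. At 24.2 kb an element straddles the window's edge, and 3 of its peaks begin past it, by 10 bp for H3K27ac in NanogBiD (13 tags against 11 in NanogWT), by 1 bp for BRG1 in NanogWT (14 against 10) and by 4 bp for H3K4me1 in NanogWT (19 against 16). These targets were present there in both arms, and FLAG, of 11 tags, in NanogWT alone.

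Grhl2, which encodes a transcription factor that maintains epithelial gene expression, held the most peaks of the 10 genes and is also the longest, at 130.5 kb. At its promoter FLAG measured 13 tags in NanogWT and 16 in NanogBiD and H3K27ac 14 and 22, BRG1 of 10 tags was found in NanogBiD alone, and H3K4me1 measured 24 and 13, with a second H3K4me1 region of 19 tags in NanogWT alone. At 5.1 kb in an intron FLAG measured 10 and 15 tags and BRG1 of 11 was again found in NanogBiD alone. The tallest FLAG site of Grhl2 lay at 11.4 kb, with 27 and 26 tags, beside BRG1 of 15 and 22, H3K27ac of 18 and 15 and H3K4me1 of 20 and 14. At Grhl2, therefore, BRG1 was called at 1 place in NanogWT and at 3 in NanogBiD, all of which had FLAG in both arms.

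Further into Grhl2 the FLAG sites lacked BRG1. A FLAG peak of 20 tags at 31.5 kb was found in NanogBiD alone, and peaks of 9 tags at 62.6 kb and 14 tags at 137.5 kb, the latter in an intron of Ncald, in NanogWT alone. At 100.8 kb FLAG measured 9 and 15 tags, with H3K27ac and H3K4me1 of 12 tags each in NanogBiD alone. H3K4me1 peaks of the gene body at 35.0, 80.0, 85.7 and 111.5 kb, between 13 and 14 tags, were found in NanogWT alone.

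**Figure D5:**
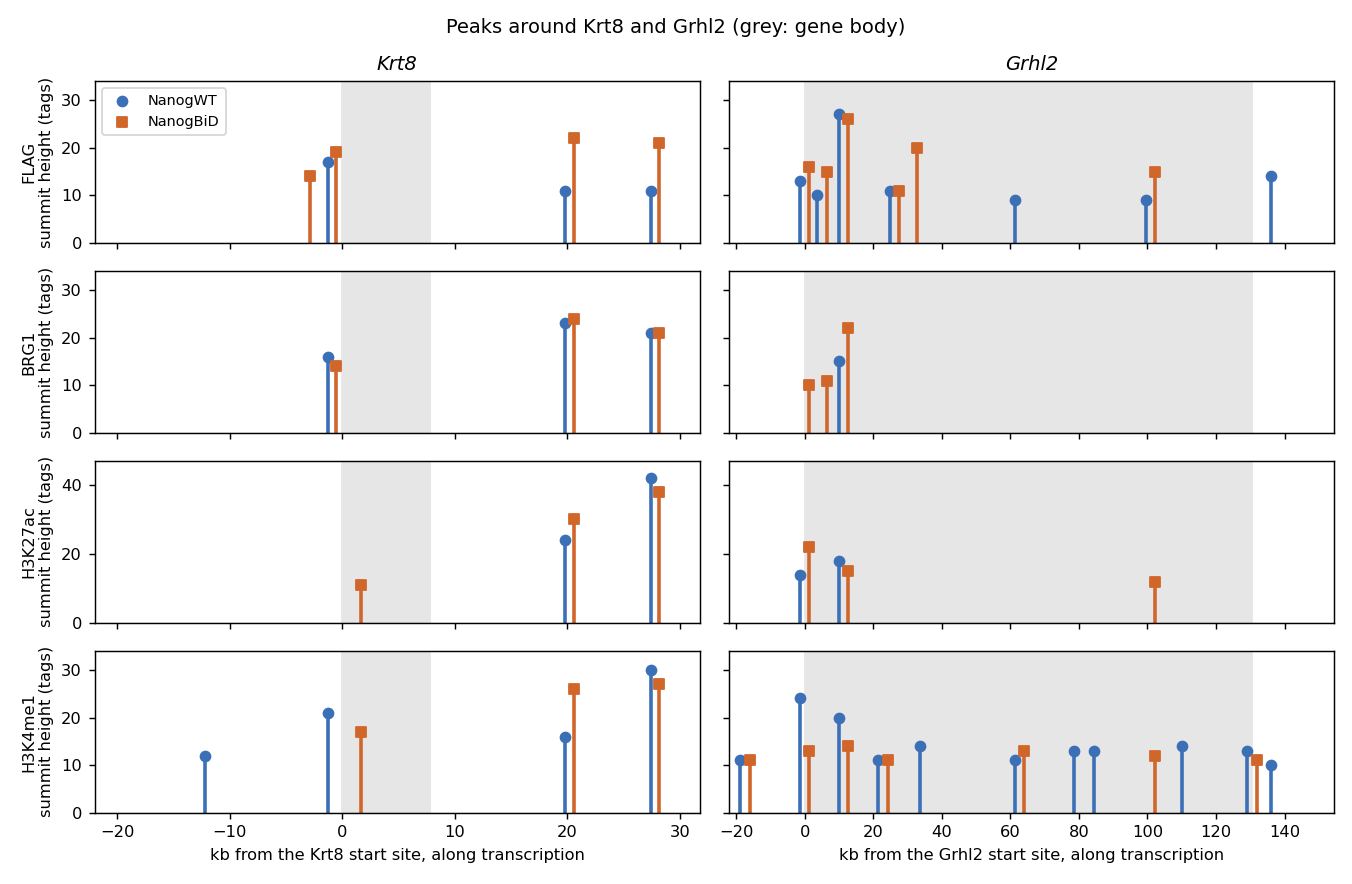
Height of each element (tags, y axis) by distance from the Krt8 and Grhl2 start sites (kb along the direction of transcription, x axis), with circles for NanogWT and squares for NanogBiD set slightly apart sideways and the gene body in grey, 1 library each. FLAG downstream of Krt8 measures 11 tags in NanogWT and 22 and 21 in NanogBiD, and BRG1 at Grhl2 has 1 circle and 3 squares.

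Esrp1, the epithelial splicing regulator, had H3K4me1 at its promoter (19 and 18 tags) and, in NanogBiD alone, a second H3K4me1 region of 14 tags at 1.5 kb. A FLAG peak of 13 tags at 20.6 kb, close to an alternative start site, was found in NanogBiD alone and without BRG1 or H3K27ac. The tall peaks of its window, with FLAG of 15 and 19 tags, BRG1 of 15 and 19 and H3K27ac of 25 and 33 at 64.6 kb, lay at the promoter of Dpy19l4.

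The shares of NANOG sites at these genes that coincided with BRG1 had overlapping intervals in the 2 arms. Of the FLAG peaks in the windows, 14 of 23 overlapped a BRG1 peak in NanogWT, 60.9% (95% Wilson interval 40.8 to 77.8), and 17 of 26 in NanogBiD, 65.4% (46.2 to 80.6). Over all protein-coding genes the shares were 49.9% and 67.2%. Overlap with H3K27ac was 56.5% and 61.5%, against 54.7% and 53.5% over all genes, and overlap with H3K4me1 82.6% and 61.5%, against 66.1% and 52.8%.

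A wider list of 40 epithelial genes, among them junction, desmosome, keratin, polarity, protease, vesicle transport and transcription factor genes, was examined at promoters in the same way. H3K27ac was called at 20 of them in NanogWT and at 27 in NanogBiD, which included the 20 of NanogWT. These are 50% and 67.5% of the list, against 57.1% and 59.9% of all promoters. The 7 in NanogBiD alone stand against 4.29% of all promoters, those marked in NanogWT included. The 7 in NanogBiD alone were Dsp, Dsg2 and Dsc2 of desmosomes, Ehf, an epithelial ETS factor, Spint1, a protease inhibitor, Rab25, an epithelial GTPase of vesicle transport, and Marveld3 of tight junctions. Heights ranged from 9 to 12 tags except at Rab25, where H3K27ac of 21 tags in NanogBiD alone accompanied FLAG of 24 and 44 tags and BRG1 of 13 and 34. BRG1 was called at 20 and 22 promoters of the list, with F11r (11 tags) and Dsc2 (10 tags) in NanogBiD alone, or 50% and 55.0% against 53.9% and 55.5% of all promoters. FLAG was called at 17 and 23, or 42.5% and 57.5% against 55.2% and 56.8%. H3K4me1 was called at 33 of the 40 in each arm, or 82.5% against 63.3% and 62.0%.

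Mesenchymal genes were marked in both arms. Of 20 such promoters, 19 had an H3K27ac peak in each arm, among them the repressor genes Snai1 (10 and 13 tags), Snai2 (25 and 25), Zeb1 (17 and 18) and Zeb2 (29 and 33). These 95% stand against 57.1% and 59.9% of all promoters. BRG1 was called at 16 and 18 (80% and 90% against 53.9% and 55.5%). It was found in NanogBiD alone at Zeb2 (16 tags), Prrx1 (15), Col3a1 (12) and Pdgfrb (14), 4 of 20 against 5.15%, and in NanogWT alone at Twist2 (14) and S100a4 (13), 2 of 20 against 3.61%. FLAG was called at 16 and 19 (80% and 95% against 55.2% and 56.8%) and H3K4me1 at 19 and 16 (95% and 80% against 63.3% and 62.0%). Among the marker genes of other cell types, both BRG1 and H3K27ac were at the promoter in NanogBiD alone at Ptprc (25 and 24 tags), Krt1 (28 and 14), Tubb3 (13 and 15) and Tdgf1 (24 and 20). H3K27ac without BRG1 was so at Cdh5 (11) and Kdr (10), and BRG1 without H3K27ac at Pou5f1 (67), the gene of Oct4. FLAG of 44 tags was there in NanogBiD alone, and H3K4me1 measured 46 tags in NanogWT and 78 in NanogBiD. Both arms received Oct4 as a transgene and the reporter carries Oct4 regulatory sequence. Tags from these copies cannot be told apart there from tags of the endogenous gene. The H3K27ac peaks at the 10 epithelial promoters, 1 and 3, stood beside 20 and 27 of 40 on the wider epithelial list and 19 of 20 in each arm on the mesenchymal one.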

How the data were processed

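CUT&Tag data were deposited as 8 samples, 1 merged library for each of 4 targets in each of 2 arms. Per the study's methods and the labels' processing notes, reads were trimmed with Trim Galore 0.6.4, aligned to mm10 with Bowtie2 2.4.5 and filtered with SAMtools 1.16.1, replicates were merged, and peaks were called with MACS 1.4.2. The authors deposited a score per peak and, as the signal, the tag pileup at each summit, neither scaled to depth, so a deeper library can give more peaks.

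All 425777 peaks lay within the chromosome lengths of GRCm38.p6. Gene models were those of GENCODE release M21. Peaks overlapping by at least 1 bp were merged into regions, and a region was shared when both arms had a peak in it. Promoters were 2 kb either side of any start site. Ratios carry exact binomial and shares Wilson 95% intervals, for counting error only. Python 3.11.15, numpy 2.4.6, pandas 2.3.3 and scipy 1.17.1 were used, and the counting was tested on simulated peaks. The members, lists, motifs and named elements were chosen with earlier results of these data known. All 10 genes were named, with the tallest element of each target and each promoter peak of 1 arm. Genes of other lists were named where BRG1 or H3K27ac was at the promoter in 1 arm, and Snai1, Snai2 and Zeb1 were named outside this rule, as repressor genes. Sequences are printed for some of the named elements only, and the rule for sequences also took the tallest shared FLAG summit of Grhl2, which is not printed.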

Additional observations from a re-analysis of the deposited data

How the results depend on the processing

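Across 114 recomputations under other settings, 77 values stayed close to those given (counts within 1.5 times, other values inside their interval), 33 moved and 4 changed direction. The ratio of BRG1 peak numbers in the windows turned from 1.33 to 0.818 for peaks with a score of at least 100 and to 0.667 for the 20000 peaks of highest score. Of the 28 recomputed ratios, 24 stayed on the same side of 1 and 2, those of FLAG and BRG1 within gene bodies alone, were exactly 1. Counting all peaks of regions that reach a window was an alternative chosen after seeing the data. The median log2 BRG1 height ratio was 0.0614 with scores of at least 100 and -0.23 after subtracting the median of all shared regions, that of H3K27ac was -0.0105 after the same subtraction, and that of H3K4me1 was -0.40 with score in place of height. Shared regions made up 33.3% for FLAG and 81.8% for BRG1 with scores of at least 100, and 30.8% for H3K27ac and 35.1% for H3K4me1 when summits had to lie within 200 bp. FLAG peaks overlapping BRG1 made up 80.0% in NanogWT and 85.7% in NanogBiD among the 20000 highest-scoring peaks. With scores of at least 100, promoter peaks numbered 2 for FLAG in NanogBiD, 1 and 1 for BRG1 and 0 and 1 for H3K27ac in NanogWT and NanogBiD, and the members with fewer FLAG peaks 1, with more BRG1 peaks 0, and with more and fewer H3K27ac peaks 2 and 2. Among the 20000 highest-scoring peaks, promoter peaks numbered 0 and 1 for FLAG, 1 and 1 for BRG1, 0 and 1 for H3K27ac and 6 in NanogWT for H3K4me1. There the members with more and fewer peaks numbered 2 and 1 for FLAG, 0 and 3 for BRG1, 2 and 2 for H3K27ac, and 3 with fewer for H3K4me1. With flanks of 50 kb, 2 members had fewer BRG1 peaks and 3 fewer H3K27ac peaks. The cause of these shifts was not tested, and a stricter list leaves fewer peaks to count. Keeping 20000 peaks per list also gives both arms equally many. No ratios or shares over all genes were computed at the stricter settings. No paired analysis was possible because merged libraries without replicate numbers leave nothing to pair. Depth is unknown, and with 15 to 44 peaks per list in the windows and summits of 8 to 43 tags, the intervals of the peak number ratios and of each single height ratio include 1, and regions called in 1 arm only have no ratio.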
